A study of Bos taurus with 6 samples.

Results

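The 5 genes described here are PHOX2A, SOX10, VIP, S100B and ELAVL4, taken by symbol from a count table of 14179 genes to set the enteric nervous system of the rumen beside the neurons and glia of the forebrain. All 5 passed the filter on low counts, as did 11478 genes in all. The libraries were poly(A) RNA of bovine (Holstein) fetal forebrain, liver and rumen, 2 libraries per tissue, labelled male, 90 days old and wild type (WT). No group carried a treatment, and the fetuses, 13 to 16 cm long from crown to rump, came from cows at a slaughterhouse. The labels mention 2 male fetuses among those collected and do not tie them to libraries. The tissues may therefore share animals, and the p-values measure the spread between these libraries, which may be technical.

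The enteric nervous system is the network of neurons and glia within the wall of the gut, the rumen included. It forms from neural crest cells that leave the hindbrain level of the embryo, enter the foregut and spread along it. The transcription factor SOX10, the receptor RET with its ligand GDNF, and the receptor EDNRB with its ligand EDN3 are needed for this colonisation. The forebrain makes its neurons and glia from the neural tube instead, and its neurons do not normally use PHOX2A. S100B and ELAVL4, in contrast, are classical glial and neuronal genes of both systems.

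Total counts per library ran from 10271024 to 18528958. Levels are given in CPM, the count unit scaled to the library total times its TMM factor. Pooling the libraries of a tissue, 3 counts corresponded to 0.115 CPM for forebrain, 0.103 CPM for liver and 0.116 CPM for rumen, the floor used below. Floors and all counting intervals cover counting error only. The tissues carried their own markers: the glutamate transporter SLC17A6 of central neurons averaged 468 CPM in forebrain and had no counts elsewhere, albumin (ALB) averaged 31198 CPM in liver, and the basal keratin KRT15 averaged 7065 CPM in rumen. In whole tissue, fewer cells of a type and less RNA per cell cannot be told apart. Without a stated strand setting, reads of overlapping genes cannot be told apart either.

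In rumen against forebrain, PHOX2A and VIP were higher, S100B and ELAVL4 lower, and SOX10 did not pass the test. So 4 of 5 members passed, 2 higher and 2 lower, where 41.8% of all tested genes passed, 20.3% higher and 21.5% lower. In rumen against liver all 5 were higher, where 43.0% of tested genes passed, 21.2% higher and 21.8% lower. In liver against forebrain 4 members were lower, where 57.8% of tested genes passed, 30.5% higher and 27.3% lower, and PHOX2A had no counts on either side. The comparisons share libraries and are not independent of each other. A gene passed at an adjusted p under 0.05 in the quasi-likelihood test of edgeR, with the Benjamini-Hochberg adjustment taken over all tested genes, and every adjusted p below is from it.

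**Figure D1:**
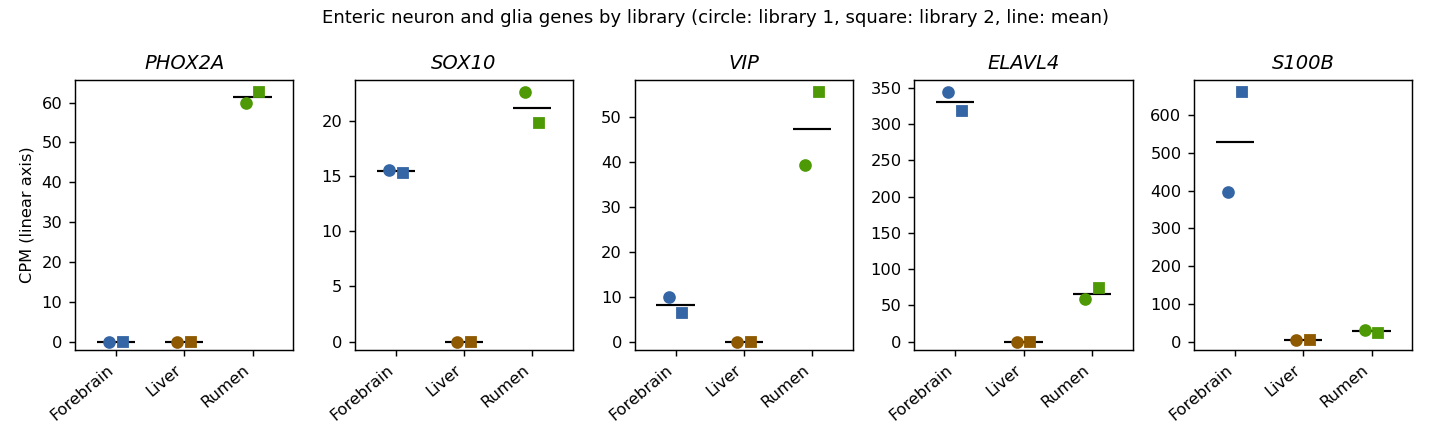
CPM of each gene (linear axes, each with its own range) in the 2 libraries of forebrain, liver and rumen, with the tissue mean as a line. PHOX2A was counted in rumen alone, and VIP stood highest in rumen. SOX10 lay at 15.3 to 22.6 CPM across the forebrain and rumen libraries, and ELAVL4 and S100B stood highest in forebrain.

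PHOX2A encodes a homeodomain factor of autonomic neurons that also switches on noradrenaline synthesis. Forebrain and liver had no PHOX2A count in any of their 4 libraries, while Rumen 1 had 784 counts and Rumen 2 had 802, or 60.0 and 62.6 CPM. The rumen libraries thus lay close together, and no library of another tissue reached the level of 1 count. Against the floor, the pooled rumen level was at least 534-fold higher than forebrain (adjusted p = 5.27e-04) and at least 592-fold higher than liver (adjusted p = 4.76e-04). Of all tested genes, 35 had counts in rumen and none in forebrain or liver, and 4 of them, PHOX2A included, reached the PHOX2A level in rumen. In RefSeq's gene table PHOX2A overlaps INPPL1, a widely expressed phosphatase gene. INPPL1 had 310 and 305 counts in forebrain and 681 and 943 in liver, where PHOX2A stayed at 0, and 996 and 1046 in rumen, its highest tissue. How many reads the 2 genes share in rumen was not tested.

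SOX10 encodes the factor that keeps neural crest cells and enteric glia in their state and that also drives the oligodendrocyte lineage of the brain. Its level was 15.5 and 15.3 CPM in Forebrain 1 and 2, and 22.6 and 19.7 CPM in Rumen 1 and 2, with no counts in liver. Every rumen library lay above every forebrain library, by a small margin. The log2 fold change of rumen over forebrain was 0.46 ± 0.33 (SE), with a 95% interval from -0.36 to 1.28 and an adjusted p of 0.319. That interval spans 0.777-fold to 2.42-fold, so equal levels are not shown. Rumen stood at least 205-fold above liver (adjusted p = 4.50e-04), and forebrain at least 149-fold above it (adjusted p = 3.50e-04). RefSeq lists SOX9 as a synonym of its SOX10 entry, and the row is described here under the name the table gives it.

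VIP encodes vasoactive intestinal peptide, a transmitter that relaxes gut muscle and also serves a class of cortical interneurons. Forebrain 1 and 2 held 9.92 and 6.35 CPM, Liver 1 and 2 no counts, and Rumen 1 and 2 held 39.3 and 55.4 CPM. The groups did not overlap, yet the 2 libraries of a tissue were further apart than for SOX10 or PHOX2A. Rumen 2 stood 1.41-fold above Rumen 1, with a counting interval of 1.26 to 1.58. The rumen level was 5.84-fold that of forebrain (log2 fold change 2.55 ± 0.40 (SE); adjusted p = 0.00449), and 10.3% of tested genes had a larger log2 fold change. Without Forebrain 2 the log2 fold change was 2.28 and did not pass (adjusted p = 0.0543), so that 1 member remained higher in rumen. Over liver, the rumen level was at least 457-fold higher (adjusted p = 3.81e-04), and forebrain was at least 77.6-fold higher (adjusted p = 0.00130).

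ELAVL4, also called HuD, encodes an RNA-binding protein of differentiating neurons that stabilises neuronal transcripts. Its level was 344 and 318 CPM in Forebrain 1 and 2, and 58.4 and 74.4 CPM in Rumen 1 and 2, without a count in liver. Both forebrain libraries lay far above both rumen libraries. Rumen was 4.99-fold below forebrain (log2 fold change -2.32 ± 0.24 (SE), 95% interval -2.90 to -1.73; adjusted p = 9.80e-04). Over liver, rumen was at least 641-fold higher (adjusted p = 8.71e-05) and forebrain at least 3194-fold higher (adjusted p = 2.23e-05).

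S100B encodes a small calcium-binding protein of astrocytes, enteric glia and Schwann cells. It was the one member counted in every library: 397 and 660 CPM in Forebrain 1 and 2, 4.02 and 5.20 CPM in Liver 1 and 2, and 31.3 and 24.2 CPM in Rumen 1 and 2. The order was forebrain, rumen, liver, with no overlap between neighbours. Rumen was 19.1-fold below forebrain (log2 fold change -4.25 ± 0.34 (SE); adjusted p = 2.12e-04) and 5.98-fold above liver (log2 fold change 2.58 ± 0.36 (SE); adjusted p = 0.00173). Liver was 114-fold below forebrain (adjusted p = 3.33e-05). The 2 forebrain libraries differed by 1.66-fold, with a counting interval of 1.61 to 1.72, and 5.31% of tested genes differed more between them. The other 15 genes of the astroglia and radial glia list did not share 1 direction, with 9 higher in Forebrain 2 and 6 lower. FABP7 had 673 and 1049 CPM in Forebrain 1 and 2 and SLC1A3 had 230.1 and 394, whereas PTPRZ1 had 549 and 522 and AQP4 had 336 and 315.

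Ratios of 2 genes within a library need no scaling, and the length of each gene cancels when 1 ratio is compared between tissues. There were 25.6 and 43.2 S100B counts per SOX10 count in Forebrain 1 and 2, and 1.39 and 1.23 in Rumen 1 and 2. For each ELAVL4 count there were 0.0288 and 0.0200 VIP counts in the forebrain libraries, and 0.672 and 0.745 in the rumen libraries. SOX10 gave 0.0451 and 0.0481 counts per ELAVL4 count in forebrain against 0.387 and 0.265 in rumen. S100B went the other way, with 1.15 and 2.08 counts per ELAVL4 count in forebrain against 0.536 and 0.325 in rumen. PHOX2A gave 1.03 and 0.842 counts per ELAVL4 count in Rumen 1 and 2. The counting intervals of the tissues did not overlap for S100B over SOX10, VIP over ELAVL4, SOX10 over ELAVL4 or S100B over ELAVL4. Libraries of 1 tissue also failed to overlap, among them those of forebrain for S100B over SOX10 and of rumen for SOX10 over ELAVL4. These intervals thus understate the spread between libraries.

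**Figure D2:**
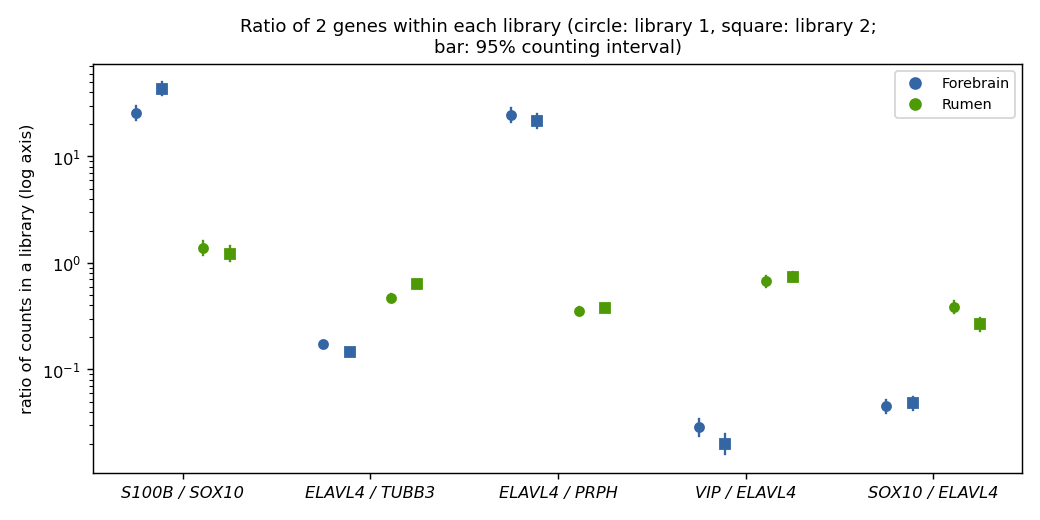
Ratio of the counts of 2 genes within each forebrain and rumen library (log axis), with exact 95% counting intervals that treat reads as independent. For all 5 ratios the 2 libraries of a tissue lay closer to each other than to either library of the other tissue.

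Genes of the same pathway, from lists written with earlier results of these data known, were then read beside the members. Of the 16 enteric neural crest factors listed, 10 were tested, with 3 higher in rumen, 3 lower and 4 not passing. Their median log2 fold change was 0.04, against -0.01 over all tested genes, of which 20.3% were higher and 21.5% lower. Those shares are the background for each list below. TLX2, a homeobox gene of enteric neurons, had no counts in forebrain and stood at 6.81 and 2.89 CPM in rumen (adjusted p = 0.0078). TFAP2A, a neural crest factor also active in skin-type epithelia, averaged 124.7 ± 7.52 CPM in rumen against 25.2 ± 13.2 in forebrain (SD, n = 2). TLX2 did not pass without either Forebrain library, and TFAP2A was lost without Forebrain 2, Rumen 1 or Rumen 2. That left 1 higher factor without Forebrain 2. Lower were TFAP2B and PAX3, neural crest and dorsal neural tube factors without a count in rumen, and GATA3. PAX3 did not pass without Forebrain 1. HAND2 was not analysed here.

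The list of ligands, receptors and associated proteins that guide enteric progenitors held 22 genes. Of these, 19 were tested, with 8 higher, 4 lower and 7 not passing (median log2 fold change 1.07). RET stood at 9.95 and 8.12 CPM in Rumen 1 and 2 against 4.31 and 6.28 CPM in Forebrain 1 and 2, without overlap, and did not pass (log2 fold change 0.76 ± 0.48 (SE), adjusted p = 0.232). Its coreceptor GFRA1 stood at 65.1 ± 2.65 and 90.6 ± 20.9 CPM, and the ligand GDNF at 1.28 ± 0.619 and 0.821 ± 0.472 CPM (SD, n = 2), and neither passed. GFRA1 was lower in rumen without either Liver library, at a log2 fold change of -0.48. EDN3, a peptide ligand that keeps progenitors dividing, averaged 5.57 ± 0.842 CPM in rumen against 0.266 ± 0.0316 in forebrain (SD, n = 2), 20.1-fold higher (adjusted p = 0.0027), but it did not pass without either Forebrain library. Its receptor EDNRB did not pass, at 11.5 ± 0.496 and 7.37 ± 1.65 CPM (SD, n = 2). ERBB3, the neuregulin receptor of Schwann cells that epithelia also make, was 127-fold higher in rumen, with 133 ± 55.4 CPM in liver (SD, n = 2). The neurotrophin NTF3 was 20.5-fold higher, while its receptor NTRK3 was 16.3-fold lower. NRTN and ERBB2 were higher too, and L1CAM, an adhesion molecule of axons, and KIFBP were lower. Liver was also higher than forebrain for 5 of the 19 tested genes, ECE1, ERBB2, ERBB3, NGFR and NRTN, and lower for 7. NRTN averaged 19.2 CPM in liver and 17.7 in rumen, and ERBB2 168 and 201 CPM. In rumen against liver, 7 genes of the list were higher and 1, NGFR, was lower. ECE1, NGFR, SEMA3A and NRG1 passed with all libraries, but each was lost in 2 or more of the 6 fits that left out 1 library. Of the 8 higher members, 4 remained in all of those fits. Leaving out Forebrain 1 gave 4 higher members, and leaving out Forebrain 2 gave 5.

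Peptides and transmitter genes split in both directions. Of 20 tested, 5 were higher in rumen and 9 lower (median log2 fold change -1.41). CARTPT, a neuropeptide gene of enteric and central neurons, stood at 66.2 and 58.1 CPM in rumen and 11.1 and 11.8 CPM in forebrain, 5.40-fold higher (adjusted p = 0.0018). TH, which starts catecholamine synthesis, was 13.5-fold higher at 43.9 ± 7.91 CPM, and DBH, which makes noradrenaline, 14.5-fold higher at 6.75 ± 1.93 CPM (SD, n = 2). TH also had 9.08 and 24.9 CPM in Liver 1 and 2, higher than in forebrain, and did not pass in rumen against liver. DBH had no counts in liver. DBH did not pass without either Forebrain library, and the choline transporter SLC5A7, the remaining higher member beside VIP, was lost without any one Forebrain or Rumen library. Leaving out either Forebrain library gave 3 higher members. TAC1, the substance P gene, averaged 1.92 ± 1.72 CPM in rumen against 285 ± 115 in forebrain (SD, n = 2), 147-fold lower. SST was 25.3-fold lower, CHGB 23.2-fold, SCG2 7.68-fold and CHGA 6.13-fold. TAC3, CALCB and DDC were also lower, although DDC was lost without Forebrain 2, Rumen 1 or Rumen 2. PENK, an opioid peptide gene, and NPY did not pass, at 50.8 ± 9.24 and 13.4 ± 0.142 CPM in rumen against 77.9 ± 18.6 and 8.19 ± 2.50 in forebrain (SD, n = 2). PENK was lower without either Liver library, at a log2 fold change of -0.62. GAL, the galanin gene, had 414 and 558 counts in the rumen libraries, and 32 and 244 in Forebrain 1 and 2. It did not pass (adjusted p = 0.0969), but was higher without Forebrain 2 (adjusted p = 0.0247), without either Liver library, with limma voom (adjusted p = 0.0431) and with forebrain and rumen alone. NOS1 and CHAT were not analysed here.

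The receptors of VIP differed from one another. VIPR2 had 34.3 and 42.9 CPM in rumen against 1.46 and 1.15 in forebrain, 29.4-fold higher (log2 fold change 4.88 ± 1.02 (SE); adjusted p = 0.0092). It was not called without either Forebrain library. VIPR1 stood at 1.16 ± 0.0161 CPM in rumen and 1.34 ± 0.0589 in forebrain and did not pass, while liver held 51.4 ± 27.0 CPM (SD, n = 2). VIPR2 too had its highest mean in liver, with 38.2 and 232 CPM in Liver 1 and 2. It did not pass in rumen against liver. The related peptide gene ADCYAP1 had no counts in rumen and 6.42 and 5.63 CPM in forebrain, at least 51.8-fold lower in rumen. Its receptor ADCYAP1R1 was without counts there as well and was lower. ADCYAP1 and ADCYAP1R1 were not called without either Forebrain library, nor ADCYAP1R1 without either Rumen library. In the list of the VIP family and its receptors, 2 of 7 tested genes were higher and 2 lower. These were 1 and 0 without Forebrain 1, and 0 and 0 without Forebrain 2, while 1 was lower without either Rumen library.

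ELAVL4 shared its direction with most neuronal genes. Of 20 tested pan-neuronal genes, 17 were lower in rumen and 1 higher, and the median log2 fold change was -4.10. TUBB3, the neuronal tubulin, stood at 120.4 ± 5.11 CPM in rumen and was 17.3-fold lower than in forebrain. UCHL1, a ubiquitin hydrolase abundant in neurons, was 18.2-fold lower and SNAP25, a protein of vesicle release, 12.2-fold. The widest differences were those of MAP2, at 71.0-fold, and STMN2, at 35.4-fold. UCHL1 and STMN2 did not pass without either Rumen library, while the other 15 lower genes passed in all 6 such fits. The neuronal genes did not all differ by the same factor. Per TUBB3 count there were 0.174 and 0.145 ELAVL4 counts in Forebrain 1 and 2, and 0.471 and 0.637 in Rumen 1 and 2. Per UCHL1 count there were 0.175 and 0.163 in forebrain and 0.534 and 0.701 in rumen. PRPH, the intermediate filament peripherin of peripheral neurons, was the single higher gene, at 165 and 197 CPM in rumen against 14.1 and 14.8 CPM in forebrain (12.5-fold; adjusted p = 1.24e-04). Of the ELAVL family, ELAVL1, the widely expressed member, was 2.77-fold higher in rumen (not without Forebrain 1), and ELAVL2 and ELAVL3 were not analysed here, nor were SOX8 and SOX9.

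**Figure D3:**
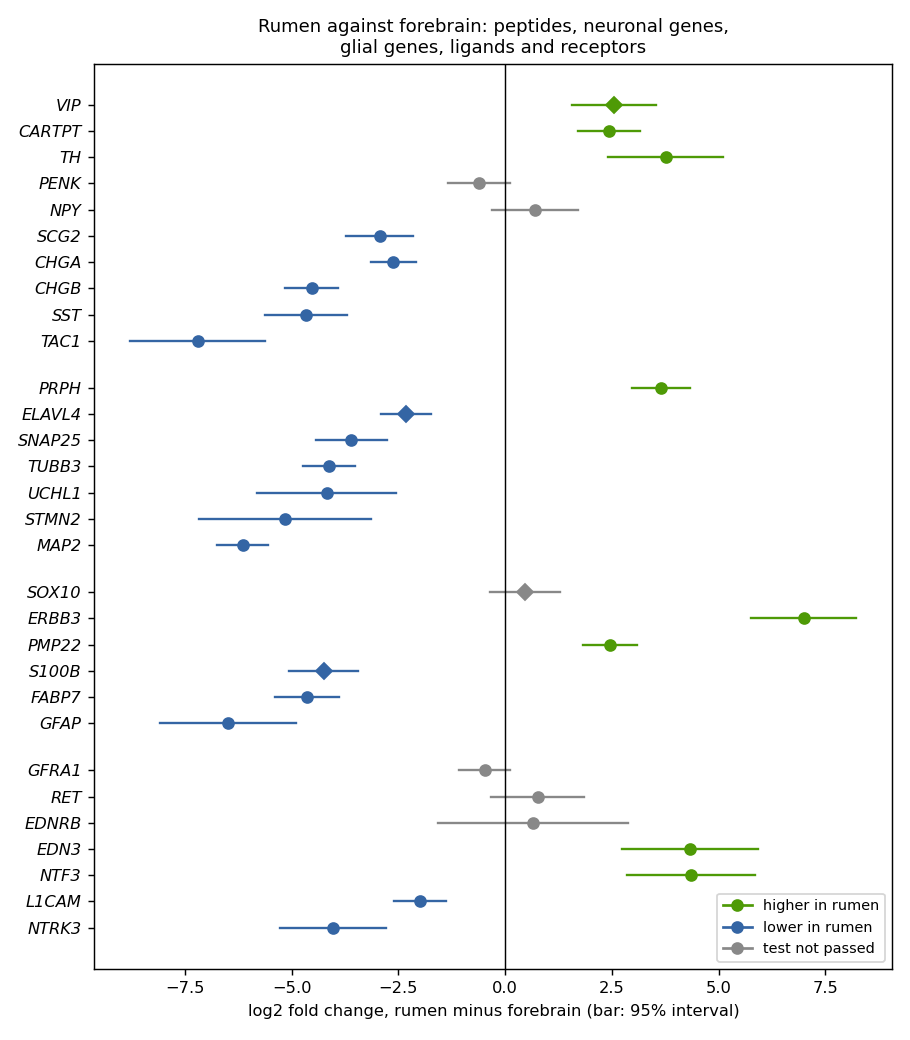
Log2 fold change of rumen over forebrain with its 95% interval for genes counted in both tissues, grouped as peptides and transmitter genes, neuronal genes, glial genes, and ligands and receptors. Diamonds mark 4 of the 5 genes described here. VIP and PRPH lay on the rumen side, ELAVL4 and S100B on the forebrain side, and the interval of SOX10 spans 0.

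Of 16 tested genes of peripheral glia and Schwann cells, 4 were higher in rumen, 7 lower and 5 did not pass (median log2 fold change 0.43), against 20.3% higher and 21.5% lower over all tested genes. GFAP, the intermediate filament of mature astrocytes and some enteric glia, averaged 1.12 ± 0.507 CPM in rumen against 101 ± 7.20 in forebrain (SD, n = 2), 89.7-fold lower. FABP7 was 25.0-fold lower, yet kept 31.6 and 37.3 CPM in rumen against 2.68 and 3.53 CPM in liver (log2 fold change of rumen over liver 3.46 ± 0.35 (SE); adjusted p = 4.43e-04). PMP22 was 5.46-fold higher in rumen. MBP, a myelin protein gene of both systems, was 54.9-fold lower in rumen but was not called without either Rumen library. The number of higher genes was 2 without Forebrain 1, Forebrain 2 or Rumen 1, and 8 without either Liver library. The added genes were CNP, CRYAB, ENTPD2 and CDH19. CDH19, a gene of Schwann cell precursors, had 24 and 6 counts in Rumen 1 and 2 and none elsewhere, and passed the filter on low counts only in the fits without a Liver library.

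Genes of central neurons and glia ranged in rumen from no counts to levels near those of forebrain. Of all 14179 genes in the table, 11346 had a count in Rumen 1 and 11048 in Rumen 2. Of the 15 genes of forebrain neurons in the table, 7 had no rumen counts: SLC17A6, GAD1, GAD2, TBR1, EOMES, NEUROD2 and NEUROD6. In Forebrain 1 and 2, however, TBR1 had only 1 and 14 counts and EOMES 0 and 1, and neither was tested. The list summed to 25.02 and 24.4 CPM in Rumen 1 and 2 and to 1382 and 1230 CPM in Forebrain 1 and 2. Most of the rumen sum came from DLX5 and DLX1, homeobox genes of forebrain interneurons. DLX5 had 11.6 and 10.6 CPM in Rumen 1 and 2 against 0.976 and 8.66 in Forebrain 1 and 2, and DLX1 had 7.73 and 9.60 against 2.36 and 19.6 CPM. Neither passed. None of its 12 tested genes was higher in rumen and 6 were lower. By edgeR none was higher even at an unadjusted p under 0.05, and DESeq2 and limma voom called 0 higher. Of the 6 lower genes, 5 passed in every fit that left out 1 library, the exception being NEUROD2 without Forebrain 1. OLIG1, the oligodendrocyte factor, had no counts in rumen and stood at 156 and 203 CPM in forebrain. The astrocyte water channel AQP4 had 0.842 and 0.234 CPM in rumen against 336 and 315 in forebrain, 592-fold lower. The matrix gene BCAN was 599-fold lower, with 0 and 13 counts in Rumen 1 and 2 against 3630 and 4406 in Forebrain 1 and 2. PTPRZ1, a phosphatase receptor of radial glia, was lower too but averaged 103 CPM in rumen, where FABP7 averaged 34.5 and SLC1A3 12.9 CPM. Among 16 tested genes of astroglia and radial glia, 10 were lower and 2, VIM and NES, higher, both of which connective tissue cells also express. The number of higher ones was 1 without any one Forebrain or Rumen library. Of 12 tested oligodendrocyte lineage genes, 5 were lower and 1, CSPG4, higher. The lower ones numbered 3 without either Rumen library, and the higher ones 0 without any one Forebrain or Rumen library and 3 without either Liver library.

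Markers of other cell types, some of which make the same genes, were present at unequal levels. For chromaffin and sympathetic cells, which also express PHOX2A, the 10 genes in the table summed to 179 and 152 CPM in Rumen 1 and 2, to 512 and 538 in the forebrain libraries and to 15.0 and 32.2 in the liver libraries. PNMT, the adrenaline enzyme of chromaffin cells, the noradrenaline transporter SLC6A2 and HAND1 had no counts in any library. TH, DBH and CARTPT stood in rumen at the levels given above. For melanocytes, which use SOX10, 7 genes summed to 57.5 and 109 CPM in rumen, of which KIT alone gave 55.8 and 104 CPM. The same genes summed to 209 and 145 CPM in forebrain and to 32.7 and 19.6 in liver. The pigment genes DCT and MLANA had no counts in any library. In Rumen 1 and 2, TYR had 1 and 0 counts, and TYRP1 had 0 and 28. For chondrocytes, which make S100B, 5 genes summed to 46.5 and 42.0 CPM in rumen, 29.4 and 16.0 in forebrain and 24.3 and 27.4 in liver, of which COL2A1 gave 22.4 CPM on average in rumen. Of 7 adipocyte genes, which mark another source of S100B, FABP4 and LEP had no counts in any library. CIDEC had none in rumen or forebrain, and PPARG averaged 21.4 CPM in rumen. The sum was 34.2 and 41.9 CPM in rumen, 31.1 and 27.9 in forebrain and 68.7 and 91.5 in liver. Interstitial cells of Cajal, pacemaker cells of gut muscle, had 7 genes that summed to 72.2 and 124 CPM in rumen. Their sums were 227 and 170 CPM in forebrain and 195 and 129 in liver. For endocrine cells of gut epithelium, 10 genes summed to 108 and 113 CPM in rumen, 1196 and 1361 in forebrain and 5.36 and 10.4 in liver. In rumen GCG, GAST and CCK had 0 counts, and the granule protein gene SCG5 averaged 54.3 CPM. In rumen against forebrain, 3 of 6 tested chromaffin genes were higher and 3 lower (CHGA, CHGB and GATA3). Of 7 tested Cajal genes 2, EDN3 and ANO1, were higher and 1, PRKCQ, lower, and the higher calls were lost without either Forebrain library. Of 3 tested chondrocyte genes 1, COL11A2, was higher, and of 5 adipocyte genes 2, PPARG and CIDEA, were higher and 1, PLIN1, lower. Only PPARG of these 4 passed in all 6 fits that left out 1 library. None of 3 tested melanocyte genes passed by edgeR, with MITF and KIT at an unadjusted p under 0.05, while DESeq2, the fits without either Liver library and the fit of forebrain and rumen alone called KIT lower. MITF was called higher by limma voom and by edgeR's legacy fit, and TYRP1, not tested with all libraries, was called higher without Rumen 1. Of 7 tested endocrine genes 5 were lower, CCK and PCSK1 by most, and none was higher by edgeR, even unadjusted. PCSK1 was lost without any one Forebrain or Rumen library. Their part in the levels of the 5 genes was not tested.

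**Figure D4:**
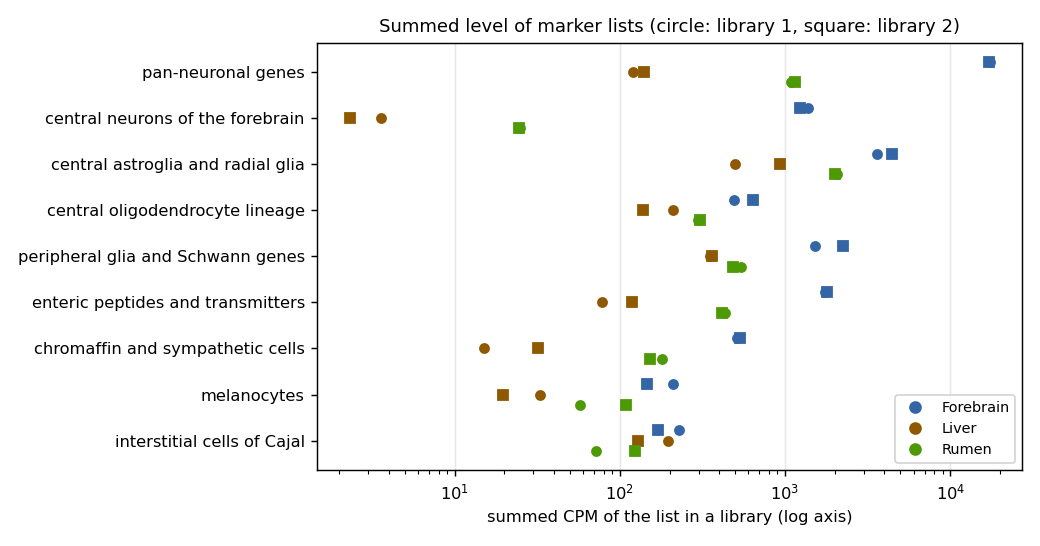
Summed CPM of the listed genes in each library (log axis), with VIM and KIT making up much of the astroglia list and of the melanocyte and Cajal lists in rumen. Forebrain neuron genes lay at 1230 to 1382 CPM in forebrain and at 24.4 to 25.02 CPM in rumen.

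S100B belongs to a family of small calcium-binding proteins. Of its 13 tested genes, 9 were higher in rumen than in forebrain, and S100B and S100A1 were lower. S100A12, a gene of granulocytes and squamous epithelium, and S100A2, a gene of basal epithelial cells, had the largest log2 fold changes, 11.52 and 9.14. S100A11 averaged 1109 CPM in rumen, and 55.2 in forebrain. Any sharing of reads between similar family members was not tested, so these levels are uncertain to that extent. Of the 9 higher genes, 7 remained higher in all 6 fits that left out 1 library, the exceptions being S100A9 and S100A13.

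Genes whose levels followed each member most closely over the 6 libraries were found by the smallest root mean square difference of centred log2(CPM + 1). Nearest to PHOX2A were DAPL1, the homeobox gene HOXC4 and CYP4B1, at 69.3, 62.3 and 63.2 CPM in rumen (differences 0.0864, 0.0906 and 0.124). For VIP the nearest gene was CARTPT (0.342), followed by SPINT2 and CLMP. For ELAVL4 the secretory granule gene SCG2 came first (0.337), at 569 CPM in forebrain, 74.1 in rumen and 0.193 in liver, followed by MAP1B and CPE. S100B was followed most closely by SLC1A3 (0.226), at 312 CPM in forebrain and 12.9 in rumen, then RPRM and SERP2. For SOX10 the nearest were PDGFRA (0.212), LY6E and TNC, which averaged 2.49 CPM or more in liver, where SOX10 had no counts. With 6 libraries in 3 tissues, many genes resemble one another by this measure.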

How the data were processed

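Poly(A) RNA of 6 libraries was analysed. The deposited values were raw counts per gene symbol, 1 column per library. HISAT2 2.0.5, featureCounts 1.5.0-p3 and edgeR 3.18.1 are named in the submitters' processing notes. Genome build, annotation and strandedness: not given in the sources used here. RefSeq's gene table (ARS-UCD2.0) listed 13929 symbols and served only for names and neighbours. The main test was that of edgeR 4.0.16 under R 4.3.3: TMM scaling, filterByExpr, 1 mean per tissue over all 6 libraries, no block, 3 residual degrees of freedom, and the quasi-likelihood test of edgeR 4. Standard errors are the log2 fold change over the square root of F. Folds are 2 to the fitted log2 fold change, which includes a prior count. Against a tissue without counts, the pooled level of the other tissue was divided by the floor, 3 counts over both libraries. Tissues with 1 to 3 counts got no fold. Ratios have exact Clopper-Pearson 95% intervals.

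The members and 17 gene lists were chosen with earlier results of these data known, and the lists hold 215 genes, 176 of them in the table and 151 tested. Genes named are the 5 members, partners chosen by role, the 2 largest changes per list and direction, the markers of other cells, and the 3 nearest genes per member; others named were picked after their values were seen. Some genes that this rule names are not reported here. The scripts were tested on simulated data. Alternatives were RLE scaling, DESeq2 1.42.0, limma voom 3.58.1, no filter, a replicate block, 2 tissues only, each library left out and, chosen after seeing the data, edgeR's legacy quasi-likelihood fit.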

Additional observations from a re-analysis of the deposited data

How the results depend on the processing

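Of the 14 fold changes of members tested, each kept its direction in all 13 alternatives, and VIP in rumen minus forebrain was the one that lost its call, without Forebrain 2 (log2 fold change 2.28, range 2.28 to 2.92 without a library; adjusted p = 0.0543). The members higher in rumen than in forebrain then numbered 1 in place of 2 (1 to 2 over these fits). Counts over all genes depended on the libraries: without 1 library, 1001 to 3621 genes were higher and 1119 to 3843 lower in rumen minus forebrain, 1333 to 3481 and 1105 to 3792 in rumen minus liver, and 1954 to 4398 and 2036 to 3993 in liver minus forebrain, against 2329, 2473, 2434, 2507, 3499 and 3133. These fits have fewer residual degrees of freedom, and where 1 library is left in a tissue it is assumed to vary like the others. With only forebrain and rumen in the fit, 3681 genes were higher and 3734 lower. With the replicate block, 2225 were higher and 2338 lower and no member call differed. GAL was then called higher (adjusted p = 0.0366) and CALCA lower (adjusted p = 0.0181), and NRG1 and SLC5A7 were not called. CALCA had no counts in rumen and 13 and 123 in Forebrain 1 and 2. It was called lower also by DESeq2, limma voom, edgeR's legacy fit and the fit of forebrain and rumen alone. Same-numbered libraries were not paired by the labels, and the correlation, across genes, of their deviations from the tissue means ran from -0.0885 to 0.0771. DESeq2 called 2484 higher and 2793 lower. RLE scaling moved the median log2 fold change of all genes from -0.01 to -0.07 in rumen minus forebrain. SOX10 passed in none of the 13 alternatives in rumen minus forebrain, with adjusted p from 0.0765 to 0.658.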
